A study of Mus musculus and Homo sapiens
Mus musculus with 16 samples.

Results

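The E-protein genes Tcf3, Tcf4 and Tcf12 were examined in H3K4me3 PLAC-seq of mouse fetal forebrain, taken from embryos at E12.5 and at E16.5. An interaction was counted for a gene when at least 1 of its 2 bins of 10 kb overlapped the gene body in mm10, which made 3 genes of 20665 autosomal protein-coding genes and 114 bin pairs of the 58543 listed in any library. Of these pairs 92 belonged to Tcf4, 17 to Tcf12 and 5 to Tcf3. PLAC-seq ligates DNA ends that lie near each other in the nucleus and then pulls down, with an antibody, the ligation products on chromatin that carries a given mark; H3K4me3 marks active and poised promoters. The deposited files list, for each library separately, the bin pairs called by the authors, each with its number of read pairs.

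The 2 groups were E12.5 and E16.5 forebrain, with 2 libraries each, and no genotype, strain or treatment that differs between them is given in the labels. The other 12 of the 16 samples of the series were single-cell libraries and were not analysed here. No label says whether the replicates came from separate embryos or litters, so a p-value measures only the spread between these samples. Whole tissue was used, so a contact made in more cells and a contact made more often per cell cannot be told apart. The protocol text attached to these samples describes adult C57BL/6J cortex, so the strain of the embryos is not settled by it.

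E proteins are class I basic helix-loop-helix (bHLH) transcription factors. They pair with tissue-specific class II bHLH factors, such as the proneural factors of the brain, and the pairs bind E-boxes, DNA sites of the form CANNTG. Id proteins lack the DNA-binding region and hold E proteins in inactive pairs. Tcf3 encodes E12 and E47, Tcf12 encodes HEB, and Tcf4 encodes E2-2, whose loss on 1 copy in people causes Pitt-Hopkins syndrome, a disorder of brain development. Tcf4 here is not the Wnt pathway factor of that nickname, which is the product of Tcf7l2.

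Tcf3 lies at chr10:80409541-80433976 (24.4 kb, 4 bins) and Tcf12 at chr9:71844252-72111893 (267.6 kb, 28 bins). The bins of Tcf3 also hold the protein-coding gene Uqcr11, and no other protein-coding gene overlaps the bins of Tcf12. Since H3K4me3 was pulled down, the promoters are where contacts of these genes were most likely to be seen, and 5 of them are shown with any E-box in capitals. They are the start of Tcf3, the 3 listed starts of Tcf12 and that of Zfp280d, a zinc finger gene and a contact partner of Tcf12. Each is the 250 bases before a RefSeq start in GRCm38.p6, the assembly with the primary sequence of mm10, read on the gene's strand. In order, they lie at chr10:80433636-80433885 (minus strand), chr9:72111820-72112069 (minus), chr9:72111202-72111451 (minus), chr9:71896097-71896346 (minus) and chr9:72274638-72274887 (plus).
Tcf3: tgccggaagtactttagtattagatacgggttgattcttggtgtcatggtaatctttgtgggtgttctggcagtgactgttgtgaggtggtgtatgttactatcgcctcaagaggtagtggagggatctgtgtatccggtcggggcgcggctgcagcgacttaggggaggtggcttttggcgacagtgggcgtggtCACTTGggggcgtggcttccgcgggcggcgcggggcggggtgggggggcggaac
Tcf12, the first start: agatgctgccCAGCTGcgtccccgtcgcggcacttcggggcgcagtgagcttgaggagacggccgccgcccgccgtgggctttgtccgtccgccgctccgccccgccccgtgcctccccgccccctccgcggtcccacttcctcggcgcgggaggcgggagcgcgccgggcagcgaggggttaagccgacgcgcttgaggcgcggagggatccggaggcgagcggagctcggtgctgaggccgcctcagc
Tcf12, the second start: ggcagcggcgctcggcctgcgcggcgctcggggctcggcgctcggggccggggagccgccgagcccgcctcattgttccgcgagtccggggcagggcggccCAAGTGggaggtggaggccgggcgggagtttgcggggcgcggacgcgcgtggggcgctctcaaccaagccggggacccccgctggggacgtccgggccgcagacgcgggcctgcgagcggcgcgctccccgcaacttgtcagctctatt
Tcf12, the third start: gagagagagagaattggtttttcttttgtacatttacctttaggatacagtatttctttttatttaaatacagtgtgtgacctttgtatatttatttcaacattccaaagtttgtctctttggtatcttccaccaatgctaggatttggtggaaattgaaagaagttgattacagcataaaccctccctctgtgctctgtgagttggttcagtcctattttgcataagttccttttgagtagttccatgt
Zfp280d: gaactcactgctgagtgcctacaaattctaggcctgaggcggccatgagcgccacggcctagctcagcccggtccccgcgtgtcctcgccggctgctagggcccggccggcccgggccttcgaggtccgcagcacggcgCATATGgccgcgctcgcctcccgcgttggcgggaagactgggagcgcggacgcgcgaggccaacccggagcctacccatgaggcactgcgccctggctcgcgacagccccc
The Tcf3 window holds the E-box CACTTG, the first Tcf12 window CAGCTG, the second CAAGTG and the Zfp280d window CATATG. The third Tcf12 window holds none. CANNTG reads the same on both strands, and 66.2% of the 32851 windows of this length in the table hold at least 1, so an E-box in such a window is common. The first and second Tcf12 windows, which share the bin chr9:72110001-72120000, were 76.8% and 78% G or C, against 34.8% in the third and a median of 52.4% over all windows.

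Tcf4 had the most listed interactions of the 3 genes in every library, and more at E16.5 than at E12.5. It is also the longest, at chr18:69343429-69687967 (344.5 kb, 35 bins), and no other protein-coding gene overlaps its bins; its sequence is not shown. Its body was touched by 16 and 21 listed interactions in E12.5 replicates 1 and 2 and by 73 and 59 in E16.5 replicates 1 and 2. Both E16.5 libraries stood above both E12.5 libraries, as they did for 64.5% of the 4036 genes with at least 10 listed interactions in all. The E16.5 lists were also longer. The E12.5 libraries listed 18413 and 16075 interactions over the genome and the E16.5 libraries 35291 and 36794, a 2.09-fold difference of means, while sequencing depth is unknown. Per 10000 listed interactions Tcf4 had 8.69 and 13.1 at E12.5 against 20.7 and 16.0 at E16.5, so its share of the lists was also higher in both later libraries. Among all genes it ranked 266 and 148 by number at E12.5 against 24 and 52 at E16.5.

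Scaled to the library, the number at Tcf4 rose 1.98-fold (log2 change 0.99, SE 0.25). Its adjusted p was 0.0178 in the quasi-likelihood test of edgeR over 4036 genes. Of the genes tested, 11% were higher by this test and 3.49% lower, and the median log2 change was 0.25. The mean number was 18.5 ± 3.54 (SD, n = 2) at E12.5 and 66 ± 9.90 (SD, n = 2) at E16.5. The call did not pass without E12.5 replicate 1 (log2 change 0.70, adjusted p = 0.180), by DESeq2 (1.03, adjusted p = 0.178) or when neighbouring interactions that the authors put in 1 cluster were counted once (0.59, adjusted p = 0.741).

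Tcf12 had fewer contacts and less even replicates. Its body had 1 and 6 listed interactions at E12.5 against 7 and 14 at E16.5. The later libraries stood above the earlier ones by as little as 1 interaction. Per 10000 listed interactions the values were 0.543 and 3.73 against 1.98 and 3.80, and the stages overlapped. The scaled change was 0.73 on the log2 scale (SE 0.61, adjusted p = 0.493 by edgeR) and turned to -0.15 without E12.5 replicate 1. Tcf12 reached the minimum of 10 only through its E16.5 interactions, so these values are a description. Tcf3 had 2 and 1 listed interactions at E12.5 against 2 and 3 at E16.5, a sum of 8 that was below the minimum of 10 for a test. Its stages overlapped, and its share of the lists was 1.09 and 0.622 per 10000 at E12.5 against 0.567 and 0.815 at E16.5.

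**Figure D1:**
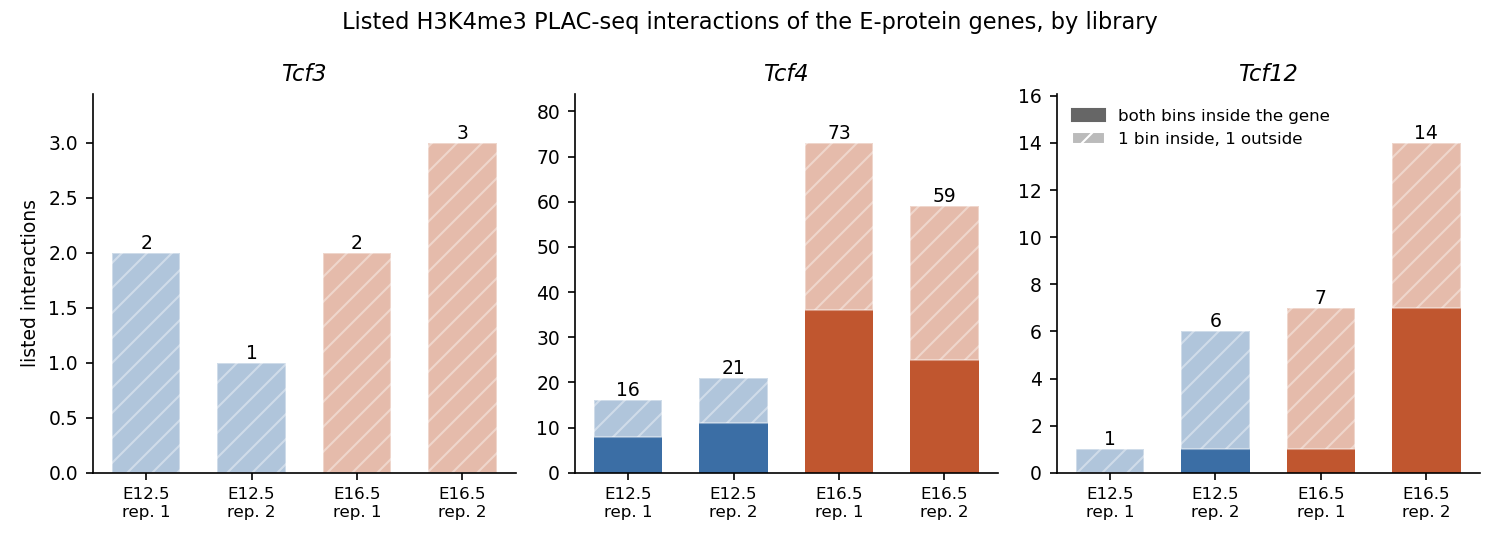
Number of listed interactions (vertical axis, from 0, on a different scale for each gene) in each of the 4 libraries, split into those with both bins in the gene body (solid) and those with 1 bin outside (hatched). Tcf4 goes from 16 and 21 at E12.5 to 73 and 59 at E16.5, Tcf12 from 1 and 6 to 7 and 14, and Tcf3 stays between 1 and 3 in every library.

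Contacts of Tcf4 were divided almost evenly between the gene and its surroundings. With both bins inside the body there were 8 and 11 interactions at E12.5 against 36 and 25 at E16.5. With 1 bin outside there were 8 and 10 against 37 and 34, and every outside partner in every library lay on the lower-coordinate side. The outside number rose 2.19-fold relative to the library (log2 change 1.13, SE 0.31, adjusted p = 0.0209 by edgeR), where 10.4% of 3838 genes were higher, 3.62% were lower and the median log2 change was 0.23. Raw outside numbers of both later libraries stood above both earlier ones for Tcf4, as for 63.9% of these genes. The inside number had a log2 change of 0.77 (SE 0.38, adjusted p = 0.212 by edgeR) and did not pass, where 15.4% of 396 genes were higher, 3.54% were lower and the median was 0.39. Its raw inside numbers did not overlap either, as for 66.7% of these genes with both later libraries higher. A difference between the inside and outside changes was not tested. The outside call was lost when any library but E16.5 replicate 2 was left out (adjusted p from 0.0633 to 0.335) and with lists of equal length (log2 change 0.74, adjusted p = 0.344), and the inside change passed without E16.5 replicate 2 (1.19, adjusted p = 0.0208).

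Inside contacts made up 50% and 52.4% of the Tcf4 interactions at E12.5 against 49.3% and 42.4% at E16.5. Both later shares were lower, with a mean difference of -5.35 percentage points and an exact two-sided permutation p of 0.33, the smallest that 2 libraries against 2 can give. Of the 11 such comparisons of the 3 genes, none had an adjusted p below 0.458. The direction turned to a gain of 12.53 points when each library was held to its 16075 interactions of lowest FDR, and of 32.6 points with an FDR under 0.0001.

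The Tcf4 contacts also spanned longer distances in the full lists. The median distance was 245 and 250 kb at E12.5 against 280 and 320 kb at E16.5, without overlap (exact permutation p = 0.33). Contacts of 600 kb or more numbered 0 and 2 at E12.5 against 14 and 15 at E16.5. These are raw numbers from lists whose mean length was 2.09-fold greater at E16.5. The number of such long contacts over the whole lists is not given here for comparison. With lists of equal length the median distance was instead 17.5 kb shorter at E16.5, and with an FDR under 0.0001 it was 75 kb shorter.

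The median Tcf4 contact had more read pairs in both E16.5 libraries. The median was 19 and 17 read pairs at E12.5 against 31 and 30 at E16.5 (exact permutation p = 0.33), while over all listed interactions it was 19 to 20 in every library. In all, the Tcf4 interactions held 338 and 396 read pairs at E12.5 against 3127 and 2172 at E16.5. Relative to the authors' expected count, the median Tcf4 interaction was 3.64 and 3.61 times expected at E12.5 against 3.39 and 3.37 times at E16.5. So read pairs were higher and the observed over expected ratio was lower in both later libraries.

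**Figure D2:**
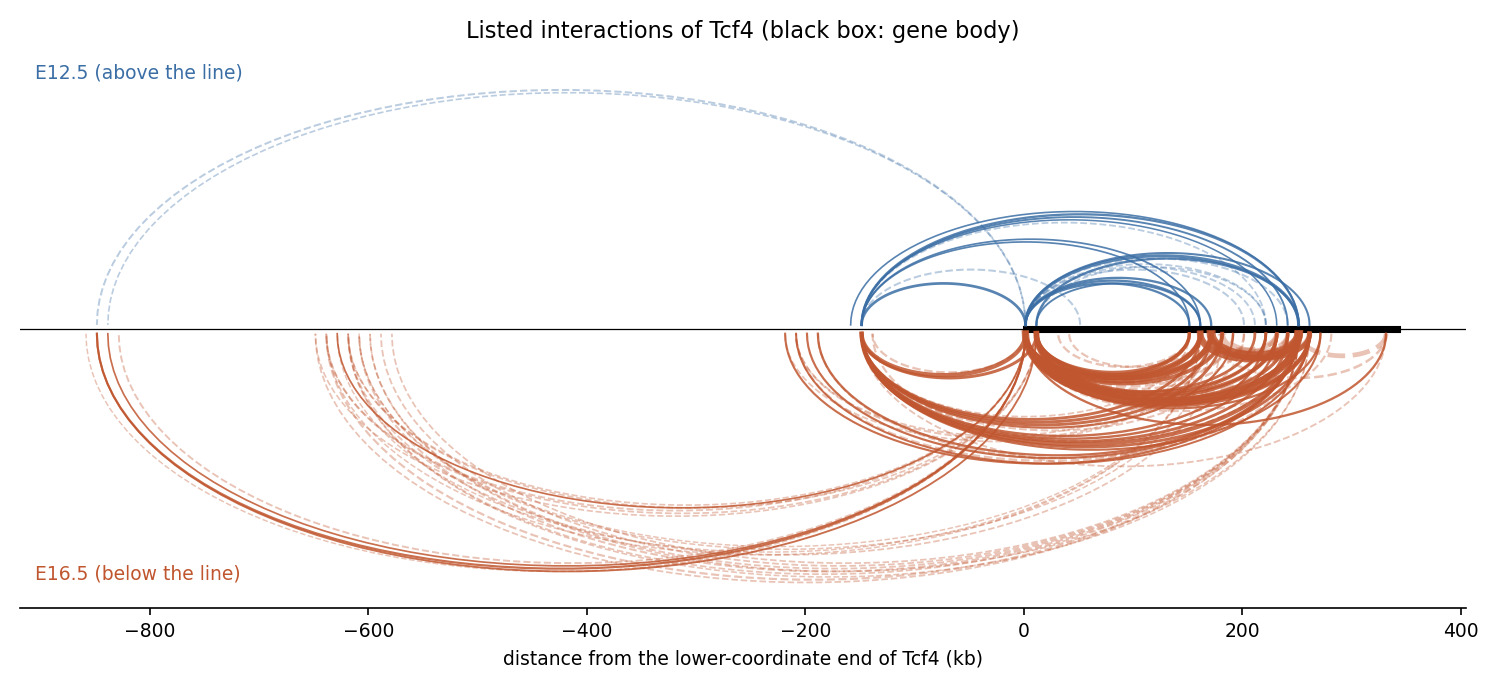
Each arc joins the centres of the 2 bins of a listed Tcf4 interaction, drawn above the line for E12.5 and below it for E16.5; the horizontal axis is the distance in kb from the lower-coordinate end of the gene (black box), arc height follows distance, solid arcs were listed in both libraries of a stage, dashed arcs in 1, and thickness grows with the mean read pairs. The E16.5 side shows arcs within the middle of the gene and a fan of arcs reaching more than 600 kb to the lower-coordinate side, where E12.5 replicate 2 alone had 2 such long arcs.

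The Tcf4 contacts gathered in a few stretches, which were marked out after the values were seen and are given as a description. All numbers by stretch, inside and outside the gene, are raw. They are not scaled to the lists, whose mean length was 2.09-fold greater at E16.5. Inside the gene these were the lower-coordinate end (chr18:69340001-69400000), a middle stretch (chr18:69490001-69540000) and an upper stretch (chr18:69540001-69680000). From the lower end to the middle there were 4 and 4 listed interactions at E12.5 against 12 and 7 at E16.5. From the lower end to the upper stretch there were 4 and 7 against 14 and 13. The middle and upper stretches, which adjoin each other, had no listed interaction between them at E12.5. At E16.5 they had 10 and 4, between bins 60 to 160 kb apart, with 861 and 385 read pairs.

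The interactions between the middle and the upper stretch included the 3 with the most read pairs among those listed in both E16.5 libraries and neither E12.5 library. The bins starting at 69510001 and 69590001, 80 kb apart, shared 160 and 146 read pairs at E16.5. The bins at 69500001 and 69590001 shared 135 and 87, and those at 69510001 and 69600001 shared 87 and 62. Their observed counts were 2.01 to 3.31 times expected, and no pair in any of the lists was below 2. A pair that was not listed at E12.5 is not known to be uncontacted there.

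Outside the gene, the partners fell into a near stretch (chr18:69120001-69210000) and a far stretch (chr18:68480001-68770000). The near stretch made 2 and 1 interactions with the lower end of the gene at E12.5 against 2 and 3 at E16.5, numbers that overlapped. It made 2 and 2 against 7 and 5 with the middle of the gene and 4 and 5 against 14 and 11 with the upper stretch. A single near bin, chr18:69190001-69200000, which overlaps the long noncoding RNA gene Gm31294, took part in 7 and 7 Tcf4 interactions at E12.5 against 14 and 13 at E16.5. These numbers are also raw, beside the 2.09-fold difference in mean list length, so a higher number alone does not show a higher share of the lists. A change in share was not tested for these stretches.

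The far stretch made 0 and 2 interactions with Tcf4 at E12.5 against 14 and 15 at E16.5. With the lower end of the gene there were 0 and 2 against 9 and 6, with the middle 0 and 0 against 3 and 2, and with the upper stretch 0 and 0 against 2 and 7. These contacts had 9 to 24 read pairs each, and replicates differed in which bins were listed. The far bins overlap the long noncoding RNA genes Gm29677, Gm30821 and Gm41766 and the microRNA gene Mir6356. No outside partner bin of Tcf4 overlaps a protein-coding gene.

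**Figure D3:**
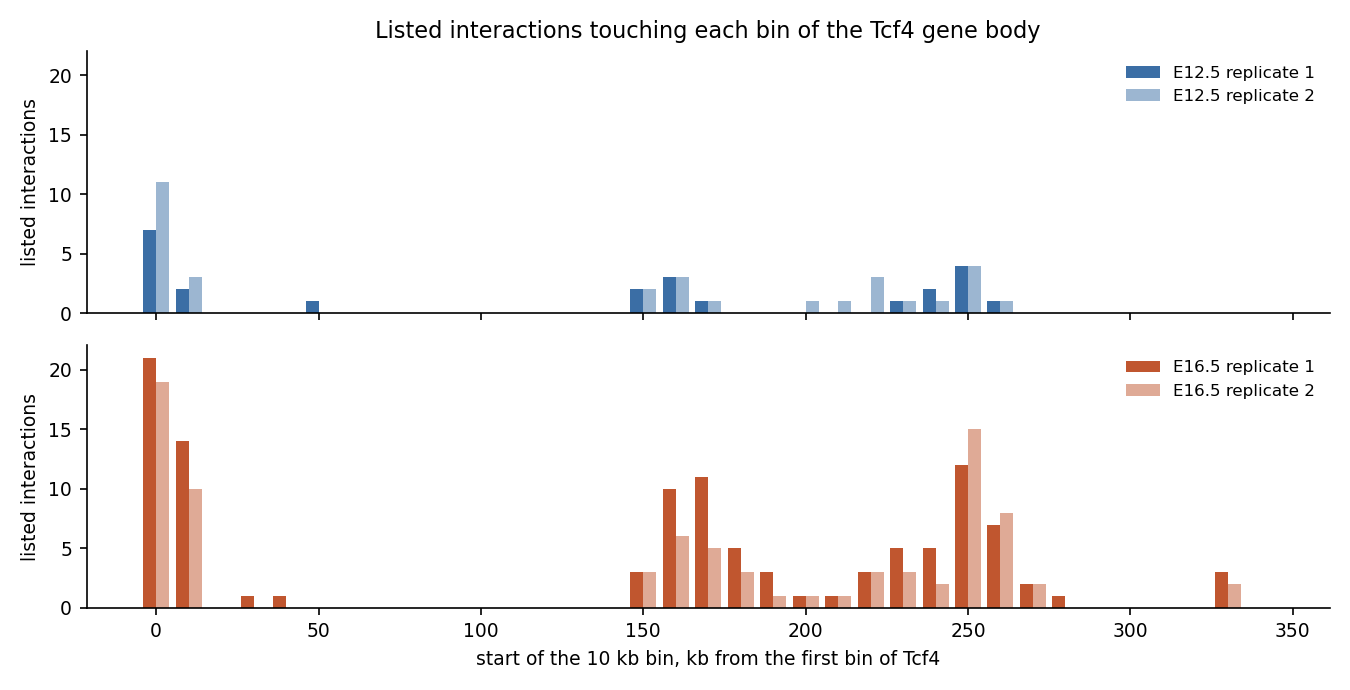
Number of listed interactions (vertical axis) that touch each 10 kb bin of the Tcf4 body (horizontal axis, kb from the gene's first bin), with the E12.5 libraries in the upper panel and the E16.5 libraries in the lower. The first bin has the most, 7 and 11 at E12.5 against 21 and 19 at E16.5, and a second group of bins stands 150 to 280 kb further on.

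By bin, the first bin of the gene (chr18:69340001-69350000) had the most listed interactions of the Tcf4 bins in every library, with 7 and 11 at E12.5 against 21 and 19 at E16.5. The next bin had 2 and 3 against 14 and 10. The bin at 69590001 in the upper stretch had 4 and 4 against 12 and 15, and that at 69510001 in the middle 1 and 1 against 11 and 5. In each of these 4 bins the raw numbers of both later libraries were higher, as in 53.2% of all bins tested. Scaled to the library, their log2 changes in the order named were 0.49, 1.57, 1.08 and 2.24. The adjusted p by edgeR was 0.563, 0.112, 0.235 and 0.144. In all, 20 of the 35 Tcf4 bins had a listed interaction and 9 reached the minimum of 10. None of the 9 passed (smallest adjusted p = 0.112 by edgeR, 4 with an unadjusted p under 0.05). This test called 0% of all 4758 bins, of which 939 had an unadjusted p under 0.05. Settings that did call bins, with all 4 libraries kept, called 0 of the tested bins of Tcf4 and Tcf12. DESeq2 called 72 of all bins and 0 of these 10. Of the 10, 3 had no adjusted p and 0 had an unadjusted p under 0.05 by DESeq2. A minimum sum of 20 gave 332 of all bins and 0 of 5. Without TMM the numbers were 124 and 0 of 10, and with a replicate block 585 and 0 of 10.

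The overlap of lists shows how far replicates at Tcf4 listed the same pairs. At E12.5 the libraries shared 14 pairs, 87.5% of those of replicate 1 and 66.7% of those of replicate 2. At E16.5 they shared 42, or 57.5% and 71.2%. Of the 92 pairs, 12 were listed in all 4 libraries, 8 in 3, 25 in 2 and 47 in 1. There were 23 pairs (25%) listed in both E16.5 libraries and neither E12.5 library, against 15.2% of all 58543 bin pairs. In the other direction there was 1, against 1.83% of all pairs, which joined the bins at 69180001 and 69590001 with 12 read pairs in each E12.5 library.

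The 12 Tcf4 contacts listed in every library can be compared as read-pair counts. All 12 were higher at E16.5, and 9 of them passed the threshold by edgeR. They were 150 to 400 kb long. Over all 6875 bin pairs listed in every library, 5.88% were higher at E16.5, 4.58% were lower and the median log2 change was -0.01. The median over the 12 was 1.08 on the log2 scale, with a range of 0.56 to 1.71, or 1.47-fold to 3.28-fold, and none was lower. Each E16.5 library had more read pairs than each E12.5 library for 12 of the 12, and for 50.7% of all such pairs. The 12 share bins and are not independent of each other.

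The largest change of the 12 was between the bins at 69350001 and 69500001, 150 kb apart near the lower end and in the middle of the gene. They shared 16 and 17 read pairs at E12.5 against 77 and 63 at E16.5 (log2 change 1.71, SE 0.28, adjusted p = 3.17e-05 by edgeR). The contact of 69350001 with 69590001 in the upper stretch had 28 and 22 read pairs against 111 and 79 (log2 change 1.56, adjusted p = 3.41e-05). That of the first bin with 69510001 had 24 and 25 against 96 and 73 (1.42, adjusted p = 0.000112). All 3 join a bin at the lower end to the middle or upper stretch.

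The contact of the 12 with the most read pairs in each library, between the first bin and 69590001, went from 44 and 33 to 147 and 98 (log2 change 1.30, adjusted p = 0.000115 by edgeR). The first bin also rose in its contacts with 69500001, from 22 and 25 to 79 and 59 (1.18, adjusted p = 0.00140), and with 69600001, from 19 and 20 to 52 and 57 (1.12, adjusted p = 0.00404). The outside bin at 69190001 gained in its contacts with 69590001, from 20 and 28 to 58 and 61 (0.94, adjusted p = 0.0124), and with 69500001, from 14 and 13 to 35 and 35 (1.01, adjusted p = 0.0189). Its contact with 69570001 went from 11 and 9 to 27 and 26 (1.03, adjusted p = 0.0409).

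For 3 contacts the difference did not pass. The outside bin at 69190001 and the first bin of the gene shared 33 and 32 read pairs against 62 and 66 (adjusted p = 0.101 by edgeR). The contact of 69190001 with 69580001 had 18 and 15 against 39 and 31 (adjusted p = 0.102), and that of the first bin with 69490001 had 24 and 24 against 50 and 41 (adjusted p = 0.195).

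The authors' expected counts for these 12 contacts also differed by stage. Their median was 6.18 and 6.53 at E12.5 against 16.0 and 14.8 at E16.5. Over all pairs listed in every library it was 5.24 and 4.87 at the earlier stage and 6.53 and 5.69 at the later. With the expected count as an offset, 0 of the 12 passed by edgeR (1 with an unadjusted p under 0.05, smallest adjusted p = 0.246) and the median log2 change was 0.21, with a range of -0.12 to 0.68; this setting called 18 of all 6875 pairs. Their median observed over expected ratio was 3.61 and 3.63 at E12.5 against 4.42 and 3.92 at E16.5. Without E12.5 replicate 1, or by DESeq2, 4 of the 12 passed. The model behind the expected count is not given in the sources used here.

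**Figure D4:**
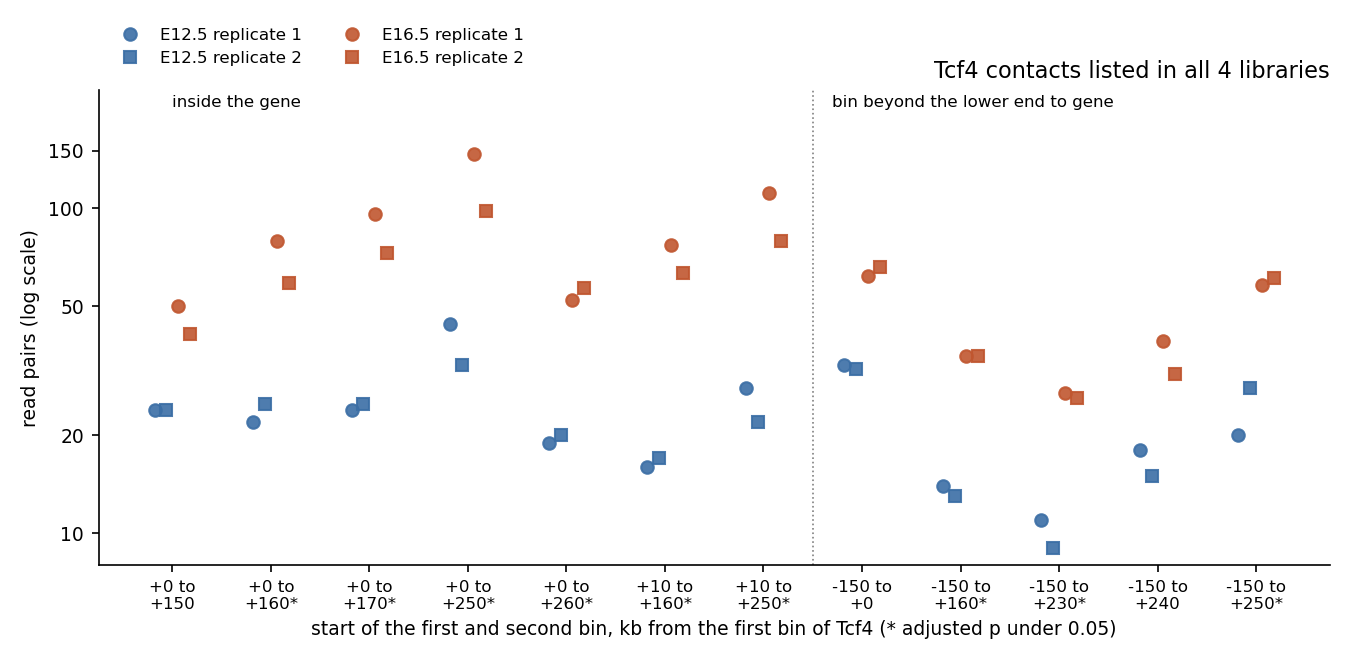
Read pairs (vertical axis, log scale) in each library for the 12 Tcf4 contacts listed in all 4, with the start of each bin on the horizontal axis in kb from the first bin of the gene, 7 contacts inside the gene on the left and 5 with the outside bin on the right; an asterisk marks an adjusted p under 0.05 by edgeR. Both E16.5 points lie above both E12.5 points in all 12 columns.

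All 17 bin pairs of Tcf12 used the bin chr9:72110001-72120000, which holds the first and second starts printed above. This bin had 1 and 6 listed interactions at E12.5 against 7 and 14 at E16.5 (adjusted p = 0.620 by edgeR). The third start, with the G- and C-poor window, lies in the bin at 71890001, and its only listed interaction was with the bin of the other starts in E16.5 replicate 2, with 30 read pairs. Inside the gene there were 0 and 1 interactions at E12.5 against 1 and 7 at E16.5, a sum of 9 that was not tested. Outside there were 1 and 5 against 6 and 7 (log2 change 0.27, SE 0.65, adjusted p = 0.848 by edgeR), on both sides of the gene. The outside number and that of the bin at 72110001 also reached the minimum only through E16.5.

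The Tcf12 contacts had a lower median distance in both E16.5 libraries. The median distance was 300 and 295 kb at E12.5 against 160 and 230 kb at E16.5 (exact permutation p = 0.33), without overlap. The E12.5 medians rest on only 1 and 6 contacts, against 7 and 14 at E16.5. No E12.5 contact was 200 kb or shorter, while 5 of 7 and 6 of 14 were at E16.5. The median read pairs per contact were 18 and 17 against 29 and 24.5. The median observed over expected ratio was instead lower in both later libraries, with 4.69 and 4.06 against 2.76 and 3.59.

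There were 4 Tcf12 pairs (23.5%) in both E16.5 libraries and neither E12.5 library, against 15.2% of all bin pairs. The bin of the first 2 starts met the bin at 72180001, 70 kb away, with 44 and 35 read pairs, and the bin next to it at 72190001 with 37 and 36. It met the bin at 72270001, 160 kb away, with 29 and 47 read pairs. That bin holds the start of Zfp280d printed above, so this contact joins a pair of promoter bins. In all, bins of Zfp280d were partners in 0 and 0 interactions at E12.5 against 2 and 1 at E16.5. The fourth was with 71970001 inside the gene, with 30 and 34 read pairs. Observed counts in the 3 outside contacts were 2.01 to 3.77 times expected.

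The 1 Tcf12 contact in all 4 libraries had 18 to 21 read pairs in each. It joined the bin of the first 2 starts to chr9:71810001-71820000, 300 kb away and beyond the far end of the gene, with 18 and 19 read pairs at E12.5 against 19 and 21 at E16.5. Relative to the library the log2 change was -0.25 (SE 0.29, adjusted p = 0.705 by edgeR). Cgnl1, which encodes the junction protein paracingulin, was a partner in E12.5 replicate 2 with 1 interaction, and in no other library.

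**Figure D5:**
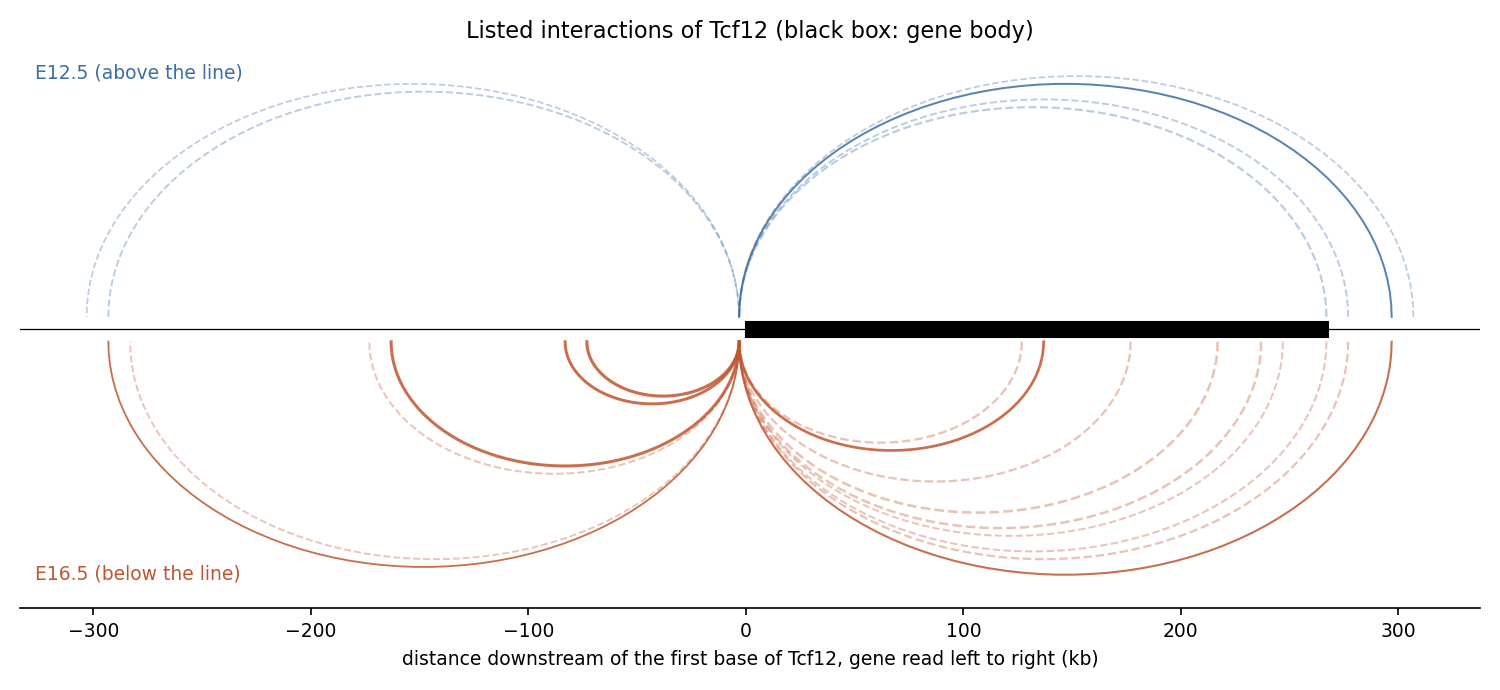
Each arc joins the bin centres of a listed Tcf12 interaction, above the line for E12.5 and below it for E16.5, with the gene (black box) read from its first base at 0 to the right; the horizontal axis is in kb, solid arcs were listed in both libraries of a stage, dashed arcs in 1, and thickness grows with the mean read pairs. All arcs leave from the bin of the first 2 starts, and arcs of 200 kb or less appear only below the line.

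All 5 bin pairs of Tcf3 used the bin chr10:80430001-80440000, which holds the Tcf3 start printed above, and reached 80 to 140 kb to the higher-coordinate side. None had both bins inside this short gene. The bin at 80540001 was a partner with 35 read pairs in E12.5 replicate 1 and 30 in E16.5 replicate 2, and the bin at 80570001 with 41 and 51 in the same libraries. The bin at 80550001 was a partner in both E16.5 libraries, with 27 and 29 read pairs. The remaining pairs were each in 1 library, with 80510001 at 47 read pairs in E12.5 replicate 2 and with 80530001 at 29 in E16.5 replicate 1.

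No Tcf3 pair was in both E12.5 libraries, and 1 was in both E16.5 libraries. The median distance was 125 and 80 kb against 110 and 120 kb, with overlapping stages (exact permutation p = 1). Median read pairs were 38 and 47 at E12.5 against 28 and 30 at E16.5 (exact permutation p = 0.33), the opposite order to the other 2 genes, from 1 to 3 contacts a library. Partner bins overlapped the exonuclease-domain gene Rexo1 with 1, 0, 1 and 2 interactions in the order of libraries used above, Atp8b3, a flippase gene, with 0, 1, 1 and 0, the zinc finger gene Klf16 with 1, 0, 0 and 1, and the homeobox gene Onecut3 with 0, 1, 0 and 0. The numbers of the 2 stages overlapped for each of these 4 genes.

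Among all genes, those whose numbers over the 4 libraries were most like those of Tcf4 were Mad1l1, Ttc28 and Zbtb18. Likeness was the Euclidean distance over the 4 libraries of log2 of the number plus 0.5 per 10000 listed interactions. Mad1l1, a spindle checkpoint gene, had 16 and 19 against 60 and 56 (distance 0.323). Ttc28 had 22 and 20 against 73 and 59 (distance 0.453), and Zbtb18, a repressor gene of the cortex, had 21 and 19 against 65 and 51 (distance 0.487). For Tcf12 the nearest were the clock gene Cry1 (0.520), Arl6ip6 (0.644) and Daam1 (0.773). The numbers of Tcf3 were met exactly by 4 genes, among them Clasrp, Smarcb1 and 9330182O14Rik.

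The genes that work with E proteins were taken as lists, with the number of interactions at each gene body tested over the same 4036 genes, of which 11% were higher, 3.49% were lower and the median log2 change was 0.25. Of the 4 Id inhibitor genes, 2 reached the minimum and 1 was called higher, where 11% of all genes tested were. Id2 went from 19 and 15 listed interactions to 54 and 55 (adjusted p = 0.0313 by edgeR), and Id4 had 41 and 48 against 55 and 57 (log2 change -0.51, adjusted p = 0.0845). Id4 thus had more interactions in both E16.5 libraries and a lower share of the lists. The median log2 change of the 2 was 0.16, against 0.25 over all genes tested. Id1 and Id3 had at most 3 interactions in a library and were not tested.

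Of the 22 proneural and neuronal class II bHLH genes, 9 reached the minimum, of which 3 were called higher and 2 lower, where 11% and 3.49% of all genes tested were. Neurod6, a gene of differentiating projection neurons, had 0 and 0 listed interactions at E12.5 against 34 and 21 at E16.5, and Neurod1 had 0 and 0 against 9 and 15. Bhlhe22, a repressor gene of cortical neurons, had 3 and 1 against 32 and 18. All 3 reached the minimum only through their E16.5 interactions, so their values are a description and the calls support nothing. Among those called lower was Olig2, a gene of glial and ventral progenitors, with 8 and 7 against 2 and 0, which reached it only through E12.5. The median log2 change of the 9 was -0.81, against 0.25 over all genes tested, also with the genes at 0 in a stage set to 3 interactions over that stage, and 8 of the 22 had no interaction in any library.

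Of the 7 Hes and Hey repressor genes, 5 reached the minimum and 1 was called lower, where 3.49% of all genes tested were. Hes1, a Notch target that represses proneural genes, had 31 and 33 against 26 and 25 (adjusted p = 0.00534 by edgeR). Hes3, with 3 and 1 against 8 and 8, and Hey1, with 6 and 1 against 3 and 4, did not pass (adjusted p = 0.323 and 0.554). Both share bins with other coding genes. The median log2 change of the 5 was 0.15.

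Of the 14 cofactor genes, 10 reached the minimum, 3 were called higher and none lower, where 11% and 3.49% of all genes tested were. Runx1t1, which encodes a corepressor of the ETO family that binds E proteins, went from 11 and 11 to 78 and 63 (adjusted p = 0.000915 by edgeR). The LIM-only adaptor gene Lmo4 rose from 6 and 9 to 44 and 51 (adjusted p = 0.00184). The related gene Lmo3 had 0 and 0 against 11 and 14 and reached the minimum only through E16.5, so its call supports nothing. The median log2 change was 0.51, unchanged with Lmo3 at 3 interactions over the earlier stage. That median was set by Lmo1, with 3 and 4 against 11 and 8, and Cbfa2t2, with 4 and 5 against 10 and 12. Both also reached the minimum only through E16.5, as did Trrap, Lmo2 and Kat2a, so the median is a description. Of the 7 genes of the SWI/SNF chromatin remodelling complex, 4 reached the minimum and 2 were called higher, where 11% of all genes tested were. Smarca2 rose from 8 and 8 to 27 and 45 (adjusted p = 0.0223 by edgeR), while Arid1b, with 2 and 0 against 13 and 21, reached the minimum only through E16.5. Arid1a, next by p, had 16 and 12 against 14 and 12 (adjusted p = 0.0815) and shares a bin with Pigv, and the median of the 4 was 0.19.

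Markers of the tissue were read in the same way. The 6 forebrain genes held 252 and 261 listed interactions at E12.5 against 235 and 238 at E16.5, summed over genes. Of them 3, Emx2, Lhx2 and Dlx2, were called lower, where 3.49% of all genes tested were. Emx1, with 6 and 3 against 14 and 23, had a log2 change of 1.18 and did not pass (adjusted p = 0.0852 by edgeR). The 4 Hox genes of the hindbrain and spinal cord, which the forebrain is known to lack, had sums over genes of 87 and 59 against 52 and 25. Hoxb5 and Hoxb6 share bins, so 1 interaction can be counted more than once in these sums. Of the 4 genes 3 were called lower, and all 4 share bins with other coding genes. H3K4me3 also marks poised promoters, so a listed contact is no measure of expression. Markers of blood and of endothelium held 0 to 1 in each library, with Hbb-bt, Kdr and Tek at 0 in all 4 and Gata1 outside the autosomes. The 2 microglia genes held 1 to 2, with Csf1r at 0, and the 3 genes of meninges and mesenchyme 9 to 21, with Twist1 at 0. Of the last, Foxc1 had 10 and 11 at E12.5 against 17 and 9 at E16.5, and its bins also hold the coding gene Gmds. The part of the contacts of these Hox and meningeal marker genes in the stage differences of the E-protein genes was not tested.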

How the data were processed

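The data were 4 H3K4me3 PLAC-seq libraries of fetal forebrain. Crosslinked nuclei were cut with MboI, ligated and pulled down with an H3K4me3 antibody, per the labels' protocols. BWA, SAMtools and the mm10 build are named in the submitters' processing notes. Versions and the interaction caller are not given in the sources used. Each listed pair carries the authors' count of read pairs, expected count and FDR (a q-value), per the file headers. The deposited counts were used as they stand. The lists hold pairs on 19 autosomes, 20 to 1000 kb apart, with an FDR under 0.01 and at least 2 times the expected count. Listed interactions held 405491 to 911710 read pairs per library, and their number limits precision.

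Genes, starts and promoter windows came from RefSeq tables of GRCm38.p6. Numbers of listed interactions per gene body or bin (sum of at least 10) and read pairs of bin pairs listed in all 4 libraries were tested with edgeR 4.0.16 in R 4.3.3, with TMM, robust quasi-likelihood fits, a model of stage alone and a Benjamini-Hochberg threshold of 0.05. The SE was taken as log2 change over the root of F. Single values per library were compared with two-sided exact permutation tests over 6 assignments. The test was tried on simulated counts. Replicates were not duplicates: over shared pairs the chi-square was 1.34 and 1.93 times its degrees of freedom at E12.5 and E16.5.

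The members and lists were chosen with earlier results of these data known. Named were, per gene, the 5 shared contacts with the smallest p and all past the threshold, the 3 pairs with the most read pairs listed in 1 stage only, the 5 partner genes with the most interactions and the 3 most like genes; of each list, members past the threshold and the 3 with the smallest p; and the bin with the most interactions. A member of the class II list that this rule picks is not reported here. Other bins and contacts were named after their values were seen. Alternatives were the library total, DESeq2 1.42.0, other filters, equal list length, a stricter FDR, short distances, clusters counted once, read pairs, the bin centre, the expected count as an offset, TMM within 10 distance bins, a quasi-dispersion of at least 1, a replicate block and each library left out.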

Additional observations from a re-analysis of the deposited data

How the results depend on the processing

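Log2 changes for the Tcf4 number that no longer passed were 1.03 by DESeq2 (adjusted p = 0.178), 1.19 over distances of at most 200 kb (0.0691), 0.59 with clusters counted once (0.741) and 1.80 with read pairs in place of interactions (0.0740); leaving out single libraries gave 0.70 to 1.20. It stayed positive in all 16 alternatives. The inside number passed with read pairs (1.93, adjusted p = 0.0257) and ran from 0.48 to 1.19 with single libraries left out. The outside number did not pass by DESeq2 (1.19, 0.565), with lists of equal length (0.74, 0.344), an FDR under 0.0001 (0.43, 0.644), clusters counted once (0.67, 0.844) or read pairs (1.37, 0.0923), and ran from 0.87 to 1.32 with single libraries left out. The Tcf12 number over at most 200 kb was 5.26, a fitted value against 0 at E12.5 that is no bound; it reached the minimum sum only through E16.5, so its call is not used. At all distances the Tcf12 number ran from -0.15 to 2.45 without single libraries; its outside number was -0.43 with lists of equal length and ran from -0.56 to 1.80. The bin centre in place of any overlap left no value for Tcf12 or Tcf3. The causes were not tested.

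Of the 12 shared Tcf4 contacts, 9 passed, but 4 by DESeq2 (3 had no adjusted p), 0 with the expected count as an offset (1 with an unadjusted p under 0.05) and 4 to 8 with single libraries left out. With that offset the sign turned for the Tcf12 contact (0.080) and 4 Tcf4 contacts of the bin at 69190001, with 69340001 (-0.041), 69570001 (-0.029), 69580001 (-0.12) and 69590001 (-0.11). Of the Tcf4 bins, 0 to 1 passed with single libraries left out. The E16.5 minus E12.5 difference in the Tcf4 inside share was 32.6 points with an FDR under 0.0001 and 12.53 with equal lists, and that of the median distance -75 and -17.5 kb. For Tcf3 the distance difference ran from -10 to 35 kb.

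Genes past the threshold in number fell from 584 to 97 (DESeq2), 262 (equal lists), 225 (FDR), 159 (short distances), 0 with clusters counted once and 0 with read pairs (181 and 993 with an unadjusted p under 0.05 by edgeR), and 268 to 507 with single libraries left out. Inside gene bodies 75 became 27, 20, 15, 0, 4, and 107 in that order (59 with an unadjusted p under 0.05 over short distances), 115 without the filter, 47 with a sum of 20, 0 with the quasi-dispersion held at 1 (118 unadjusted) and 0 to 63 with single libraries left out (0 without E12.5 replicate 1 or 2, with 120 and 114 unadjusted). Without TMM the inside calls were 38 higher and 22 lower, against 61 and 14, and the median gene changed by 0.11 in all and 0.10 inside, against 0.25 and 0.39; Tcf4 then changed by 0.85 in all (adjusted p = 0.0269), 0.48 inside (0.432) and 1.03 outside (0.0341). Outside, 539 became 18, 194, 261, 59, 0 and 0 (137 and 907 unadjusted), and 186 to 391. For bins, 0 became 124 without TMM, 72 by DESeq2, 332 with a sum of 20 and 0 to 361 with single libraries left out (575 and 553 unadjusted where 0, without E12.5 replicate 1 or 2); for shared pairs, 719 became 98 by DESeq2, 18 with the offset and 274 to 537.

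Same-numbered replicates shared only a number: their deviations correlated at 0.0889 over genes and 0.128 over shared pairs. With the replicate number as a block, the Tcf4 changes were 0.99 in all (adjusted p = 0.0386), 0.79 inside (0.0841) and 1.13 outside (0.0147), 9 of the 12 shared contacts passed, and calls went from 584 to 370 genes in all, 75 to 124 inside and 0 to 585 bins. Library depth is unknown, and a gene or bin with few listed interactions, such as Tcf3, could not be tested.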
